A study of Mus musculus with 24 samples.

Results

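The comparison described here was between 2 clones of mouse 32D cells that carried the same genotype label, Nat10+/-, and had not yet received actinomycin D. The 2 libraries of the clone called KO2 at 0 h were set against the 2 libraries of the clone called KO1 at 0 h, which makes 4 of the 24 libraries in the series. They were chosen by their titles alone, and every expressed gene was compared. The series as a whole also holds wild-type cells (WT). It follows all 3 lines after 0, 3, 6 and 9 h with 0.05 µg/ml actinomycin D, with 2 libraries for each line and time. Actinomycin D inhibits transcription, and how far it did so at this dose was not tested. All cells grew in medium with 10% serum and interleukin-3 at 10 ng/ml. Another label calls both clones Nat10 deficient. The labels do not say how the clones were made, and each genotype other than WT is 1 clone per name, so a difference between KO2 and KO1 is a difference between 2 lines of cells.

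Nat10 is the enzyme that places N4-acetylcytidine (ac4C) on ribosomal, transfer and messenger RNA, and 32D is a line of immature myeloid cells from mouse bone marrow that needs interleukin-3 to survive. Many of the genes below belong to the interferon response. Type I interferon binds a receptor that activates the kinases Jak1 and Tyk2, and these phosphorylate transcription factors, Stat2 among them. With Irf9 they form a complex that binds a DNA element called ISRE in the promoters of antiviral effector genes. Sensors of foreign nucleic acid, such as the RNA helicase that Ddx58 encodes, start interferon production through Irf3 and Irf7.

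The 4 clone libraries held between 15553998 and 16529890 gene counts, and the WT libraries of 0 h 17298468 and 17338939. Levels are given below as CPM, a library's counts scaled to a common total, with TMM factors, and differences as log2 values fitted by edgeR's quasi-likelihood model, with standard errors (SE) and Benjamini-Hochberg adjusted p-values over 16167 genes. The 2 libraries of a clone were close to each other, with a median absolute log2 difference of 0.06 in KO1 and 0.06 in KO2, and the clones separated on the first principal component of the 6 libraries of 0 h (65.6% of the variance). The labels call the libraries biological replicates without saying that cultures were separate, so the tests rest on differences among the libraries at hand, and these may be technical. Of the markers of the line's identity, Csf2rb, Il3ra and Ptprc were expressed in all 4 libraries (375 to 402, 65.0 to 68.3 and 329 to 387 CPM, unscaled), whereas Mpo, Elane, Kit and Cd34 were at or near 0. Spike-in RNA stood at 241 and 240 CPM of gene counts in KO1, at 342 and 324 in KO2 and at 7.46 and 6.92 in WT, although an equal amount was added to each sample per the labels.

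Nat10 itself did not separate the clones. Nat10 (ENSMUSG00000027185, chromosome 2, 103551601 to 103591615 on GRCm39, minus strand) stood at 97.7 and 108 CPM in the KO1 libraries, at 99.2 and 95.2 in KO2 and at 111 and 113 in WT. The ranges of the clones overlapped, and the difference of KO2 from KO1 was -0.09 (log2, SE 0.05, adjusted p = 0.26, edgeR). Against WT the fitted differences were -0.12 (SE 0.05) in KO1 and -0.21 (SE 0.05) in KO2. A count summed over all exons says nothing of the amount of working protein in either clone.

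The clones nevertheless differed at many other genes, most of them by little. At 0 h 2722 of 16167 genes passed an adjusted p of 0.05 (edgeR), which is 16.8% of those tested. Of these, 1178 genes (7.29% of those tested) were higher in KO2 and 1544 (9.55%) were lower. Differences under 1.5-fold made up 81.0% of the calls (2206 genes). Among 9875 genes whose mean reached 5 CPM, the median absolute log2 difference was 0.10, and 6350 lay within 1.1-fold. With the 4 clone libraries fitted alone 1442 were higher and 1429 lower, and with the 6 libraries of 0 h 1435 and 1469, so the surplus of lower genes was not seen in those fits. For larger differences there were 207 genes at least 2-fold higher in KO2 (1.28% of those tested) and 113 at least 2-fold lower (0.699%). Of the 207, 71 were on the 6 lists of interferon, nucleic acid sensing and antigen presentation genes described below.

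The direction of the small differences rests on the scale. With spike-in totals as the scale, the median of all genes moved by -0.46 (log2), and 213 genes were called higher and 9072 lower, so that 2.29% of the calls were higher in KO2 against 43.3% on the TMM scale. Differences below are relative to the average transcript. Without KO2 replicate 2, 73 genes were at least 2-fold lower, against 113 with it.

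**Figure D1:**
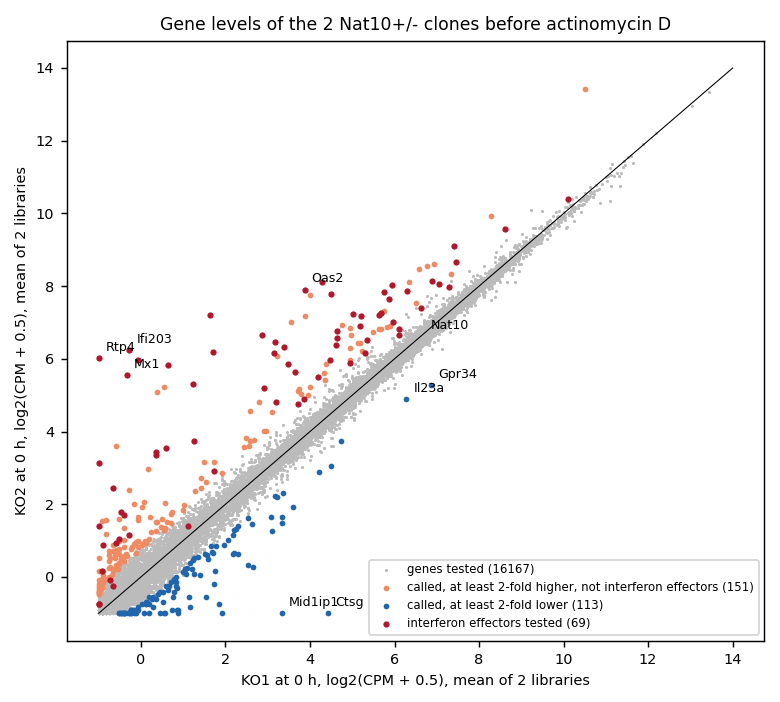
Mean level of each of the 16167 genes tested in KO1 (horizontal) and KO2 (vertical) at 0 h, as log2(CPM + 0.5) over 2 libraries, with the line of equal levels. The 69 interferon effectors tested (dark red) lie above the line, the 151 other genes called at least 2-fold higher are orange, and the 113 called at least 2-fold lower are blue, with Ctsg and Mid1ip1 at the floor of KO2.

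Of the lists examined, interferon-stimulated effector genes had the most members called higher in KO2. Of 84 effectors matched, 6 had no count in the 4 libraries and 69 were tested. In KO2 64 of the 69 were called higher and 0 lower, 56 of them at least 2-fold. The median difference was 2.15 (log2), or 2.10 with genes at 0 in one clone set to a floor of 3 counts over the group, against -0.01 for all genes tested. It was 1.69 on the spike-in scale, where 60 were called higher. Leaving out any 1 of the 4 libraries left 62 to 64 called higher. The summed level of the tested effectors was 3379 and 3404 CPM in KO1, 8522 and 8589 in KO2 and 3420 and 3419 in WT. The 5 not called were Ifi204, Ifi211, Gbp5, Gbp6 and Phf11d. Ifi204 and Ifi211 had at most 0.19 CPM in any of the 4 libraries.

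The genes with the largest rises were nearly silent in KO1 and in WT. Rtp4 (ENSMUSG00000033355, chromosome 16, 23339041 to 23432972 on GRCm39, plus strand) encodes a receptor transport protein induced by interferon. It had 0 counts in both KO1 libraries, 1030 and 1032 counts in KO2, and 0 and 2 in WT. KO2 was thus at least 666-fold higher, with the floor of 3 counts over both KO1 libraries (adjusted p = 3.32e-58). Mndal, a gene of the Ifi200 family of DNA-binding proteins, had 0 counts in KO1 against 134 and 133 in KO2, at least 86.2-fold higher. Apol9a, an apolipoprotein L gene, had 0 counts in KO1 against 40 and 28 in KO2, at least 21.9-fold higher. In WT Rtp4, Mndal and Apol9a had 2, 1 and 2 counts over both libraries, so WT was near KO1 at all 3.

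Other effectors were low but detectable in KO1. Ifi203, of the same Ifi200 family, stood at 0.33 and 0.31 CPM in KO1, 75.1 and 74.5 in KO2 and 0.18 and 0.06 in WT (log2 7.82, SE 0.18, adjusted p = 1.29e-62). Mx1, a dynamin-like antiviral GTPase, stood at 0.40 and 0.19 CPM in KO1 and 45.5 and 47.7 in KO2 (log2 7.29, SE 0.20). Its neighbour Mx2 stood at 0.80 and 1.32 against 56.9 and 56.5 CPM (log2 5.73, SE 0.17). No KO1 library reached any KO2 library at these genes, which were picked for the size of their rise at 0 h. Apol9b, the neighbouring copy of Apol9a, stood at 0.53 and 0.38 against 59.4 and 64.9 CPM (log2 7.08, SE 0.18). Trim30d, of the tripartite motif family, stood at 0.60 and 1.0 against 32.0 and 35.0 CPM (log2 5.36, SE 0.20). Ifi27l2a stood at 2.25 and 1.44 against 39.2 and 39.6 CPM (log2 4.42, SE 0.14).

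A further set had a clear level in KO1 and in WT and rose from there, apart from Oasl2 and Ifit1, which were low in both. Oas2 and Oas3 encode oligoadenylate synthetases, which activate RNase L on sensing double-stranded RNA. Oas2 stood at 14.2 and 14.1 CPM in KO1, 236 and 243 in KO2 and 11.8 and 10.3 in WT (log2 4.08, SE 0.06, adjusted p = 5.2e-81). Oas3 stood at 20.2 and 17.9 CPM in KO1, 263 and 287 in KO2 and 23.1 and 19.9 in WT (log2 3.85, SE 0.06). Oasl2, of the same family, rose from 2.85 and 2.32 to 141 and 151 CPM (log2 5.82, SE 0.13), with 2.72 and 2.84 in WT. Isg15 encodes a ubiquitin-like protein that is joined to other proteins. It rose from 6.10 and 7.4 CPM in KO1 to 97.5 and 102 in KO2 (log2 3.88, SE 0.09). Ifit1, whose protein binds viral RNA caps, rose from 2.65 and 2.89 to 73.6 and 70.2 CPM (log2 4.69, SE 0.14), with 1.66 and 1.18 in WT. The smallest difference called in the list was that of Ly6e, a gene picked out after its values were seen, which was already abundant (1111 and 1106 CPM in KO1 against 1333 and 1352 in KO2, log2 0.28, SE 0.02). Counting did not use strand, and near-identical members of the Oas, Ifit, Mx, Gbp, Ifi200 and Apol9 families can share or lose reads, so the split of counts between copies is uncertain.

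**Figure D2:**
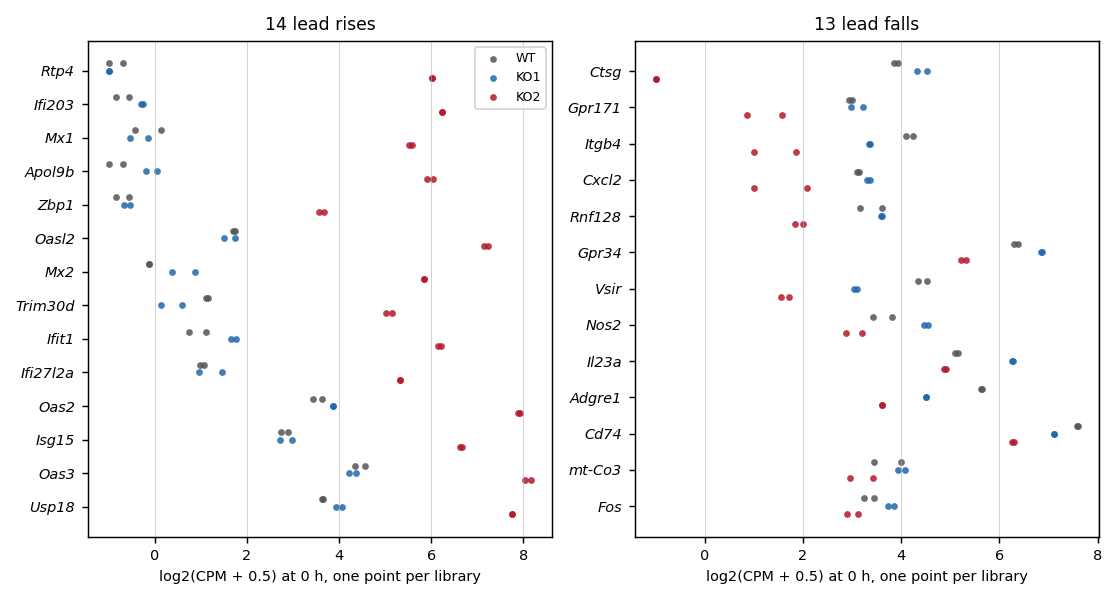
Level of the 14 genes with the largest rises (left) and 13 of the 14 with the largest falls (right) at 0 h, as log2(CPM + 0.5) with 1 point per library and 2 libraries each for WT (grey), KO1 (blue) and KO2 (red). For every rise the KO2 libraries lie to the right of all KO1 and WT libraries, with Rtp4 at 64.4 and 64.3 CPM in KO2. For Il23a, Nos2 and Fos KO2 lies nearer to WT than KO1 does.

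Promoter sequence was read for the genes that led the rises, because the interferon response acts through a short element near the start site. RefSeq windows on GRCm38.p6 from 250 bases before to 50 after a gene's start were matched by symbol for 10546 of the 16167 genes tested, and for 7 of the 14 lead rises and 5 of the 14 lead falls. An ISRE-like motif was defined as GAAA, any 2 bases, GAAA, on either strand. It was found in 6 of the 7 windows of lead rises and 0 of the 5 of lead falls. Here are stretches from those 6 windows, all before the start site, 5′ to 3′ on the gene's strand, with the match nearest to the start in capitals:
Isg15: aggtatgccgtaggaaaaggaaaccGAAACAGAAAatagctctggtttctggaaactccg
Ifit1: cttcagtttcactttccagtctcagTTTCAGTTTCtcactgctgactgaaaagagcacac
Oas3: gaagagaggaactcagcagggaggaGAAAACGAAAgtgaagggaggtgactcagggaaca
Ifi203: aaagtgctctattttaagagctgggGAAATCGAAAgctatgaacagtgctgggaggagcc
Apol9b: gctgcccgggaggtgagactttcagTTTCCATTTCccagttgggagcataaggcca
Trim30d: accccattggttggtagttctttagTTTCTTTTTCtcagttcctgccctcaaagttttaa

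In Isg15 (chr4:156200850-156200909, minus strand), Oas3 (chr5:120777700-120777759, minus strand) and Ifi203 (chr1:173942493-173942552, minus strand) the motif read on the gene's own strand, and it ended 56, 65 and 25 bases before the start. In Ifit1 (chr19:34640779-34640838, plus strand), Apol9b (chr15:77729016-77729071, plus strand) and Trim30d (chr7:104507856-104507915, minus strand) it read on the opposite strand and lay 75, 21 and 31 bases before the start. Isg15 held 3 matches before its start and Ifit1 and Apol9b 2 each. Over larger groups the motif was in 46 of the 127 windows of genes called at least 2-fold higher in KO2 (36.2%). It was in 2 of 58 windows of genes at least 2-fold lower (3.45%) and in 392 of all 10546 (3.72%). Genes called higher by less than 2-fold had it in 4.68% of 770 windows. Among genes at least 2-fold higher that were not on the effector list, 17 of 83 windows held it (20.5%), against 33 of the 52 windows of effectors (63.5%). A GAS-like motif, a second kind of interferon element, was taken as TTC, any 3 bases, GAA. It was in 12.6% of the windows of genes at least 2-fold higher, 6.9% of those at least 2-fold lower and 8.58% of all windows. A match is a description of the letters and does not show that a factor binds there.

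The regulators of the response rose in part. Of 25 interferon signalling genes tested, 9 were called higher in KO2 and 1 lower, with a median of 0.13, which was -0.33 on the spike-in scale. Without KO1 replicate 1, 2 were lower. Stat2 and Irf9 were among the 9. Irf7, the factor that amplifies interferon production, rose from 14.9 and 13.5 CPM in KO1 to 141 and 148 in KO2 (log2 3.35, SE 0.06, adjusted p = 1.34e-70), with 11.5 and 11.4 in WT. Irf9 rose from 30.6 and 29.7 to 111 and 117 CPM (log2 1.92, SE 0.06), and Stat2 from 48.6 and 53.3 to 147 and 156 (log2 1.57, SE 0.05). Usp18, the protease that removes Isg15 and damps the receptor, rose from 16.1 and 14.7 to 217 and 216 CPM (log2 3.81, SE 0.06).

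The receptor and its kinases were not called. Ifnar1, chosen as a receptor subunit after its values were seen, stood at 65.9 and 63.7 CPM in KO1 and 64.4 and 65.6 in KO2 (log2 0.00, SE 0.06). Ptpn6, a phosphatase that acts on cytokine receptors, was the 1 member called lower (log2 -0.15, SE 0.03, adjusted p = 0.000389). Interferon genes themselves were hardly counted. Of the 18 matched, 14 had no count in the 4 clone libraries, and over all of them KO1 had 1 count and KO2 11. Only 1 passed the filter on low counts over the 24 libraries. It had 0 counts in the 4 clone libraries of 0 h, so it could not be called, and the others were not tested.

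Part of the nucleic acid sensors moved in the same direction. On the spike-in scale 5 of the 20 tested were called higher and 9 lower, with a median of -0.15. On the TMM scale 9 were called higher, 1 lower and 10 not called, with a median of 0.31. The 1 call lower was lost without KO1 replicate 2, KO2 replicate 1 or KO2 replicate 2. Zbp1, a sensor of left-handed nucleic acid, stood at 0.13 and 0.19 CPM in KO1, 11.3 and 12.2 in KO2 and 0.18 and 0.06 in WT (log2 6.12, SE 0.36, adjusted p = 1.77e-28). Dhx58 and Ddx58 encode RNA helicases that sense viral RNA. Dhx58 rose from 8.49 and 9.28 to 67.4 and 65.7 CPM (log2 2.90, SE 0.10), and Ddx58 from 92.1 and 99.0 to 351 and 356 (log2 1.89, SE 0.04). Adar, which edits adenosine in double-stranded RNA, rose from 108 in both KO1 libraries to 214 and 211 CPM (log2 0.97, SE 0.04). KO2 was above both KO1 and WT at these 4 genes, with no overlap of libraries. They were picked as large called rises, so their separation from KO1 follows largely from that choice.

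Antigen presentation by MHC class I rose as well, whereas class II did not move as a group. Of 22 class I genes tested, 17 were called higher in KO2 and 3 lower, with a median of 0.67 that stayed above 0 on the spike-in scale (0.21). Leaving out any 1 library left 17 higher and 3 lower. H2-K1, a classical class I heavy chain, rose from 78.8 and 81.7 CPM in KO1 to 269 and 287 in KO2 (log2 1.79, SE 0.04, adjusted p = 9.68e-68). H2-T24, H2-T22 and H2-T23, nonclassical members, rose by 3.51, 1.71 and 1.67 (log2). The members called lower were Calr, Canx and Pdia3, chaperones of the endoplasmic reticulum that also fold other proteins, at -0.17, -0.12 and -0.11 (log2). Of 9 class II genes tested, 1 was called higher and 1 lower. Cd74, the invariant chain of class II molecules and by far the most abundant member, fell from 138 CPM in both KO1 libraries to 75.8 and 77.7 in KO2 (log2 -0.85, SE 0.04, adjusted p = 1.53e-34), with 191 and 194 in WT. The member called higher was Ctss, a protease that trims the invariant chain (log2 0.84, SE 0.24, adjusted p = 0.00605). That call was lost without KO1 replicate 2 (adjusted p = 0.0901, edgeR) or KO2 replicate 2 (0.0556).

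Genes of granulocytes were among the groups lower in KO2. Of 31 neutrophil granule and oxidase genes matched, 5 had no count in the 4 libraries and 23 were tested. In KO2 12 were called lower and 0 higher, with a median of -0.27, and leaving out any 1 library left 9 to 12 lower. The summed level of the list was 3831 and 3793 CPM in KO1, 2743 and 2735 in KO2 and 3897 and 3889 in WT. Most of that sum was Lcn2, which encodes a siderophore-binding granule protein and is named here after its values were seen. Lcn2 stood at 2185 and 2175 CPM in KO1, 1312 and 1299 in KO2 and 2071 and 2060 in WT (log2 -0.74, SE 0.02, adjusted p = 4.17e-67). Lyz2, the lysozyme of myeloid cells, fell from 2.85 and 2.89 to 0.56 and 0.69 CPM (log2 -2.19, SE 0.32), with 11.8 and 10.4 in WT. The primary granule genes Mpo and Elane, which define the promyelocyte, were near 0 in every library, and Prtn3 was not called.

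The gene with the largest fall was silent in KO2. Ctsg encodes cathepsin G, a serine protease of primary granules (ENSMUSG00000040314, chromosome 14, 56337338 to 56340031 on GRCm39, minus strand). It had 293 and 361 counts in KO1, 0 in both KO2 libraries and 250 and 236 in WT, so KO2 was at least 225-fold lower than KO1 (adjusted p = 5.38e-42). In the 6 KO2 libraries of later times it had 2 counts in all, against 917 in those of KO1. Mcpt8, a mast cell protease gene beside it on chromosome 14 (56319623 to 56322730), was also at 0 in KO2, against 9 and 11 counts in KO1 and 11 and 15 in WT. Genes further out, looked at after these values were seen, were counted in both clones. Gm5801 had 257 and 246 counts in KO1 and KO2 and Cenpj 750 and 940, while Cma1 and Gzmb had 0 in both.

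In all, 8 genes with at least 20 counts over the KO1 libraries had none in KO2, and 5 had the reverse. Mid1ip1, which promotes fatty acid synthesis (chromosome X, 10581252 to 10585929), had 149 and 148 counts in KO1 and 373 and 308 in WT, so KO2 was at least 102-fold lower than KO1 (adjusted p = 1.09e-31). Later KO2 libraries held 1 count of it in all. Tln2, a linker of integrins to actin (chromosome 9, 67124369 to 67466985), had 45 and 56 counts in KO1 and 97 and 80 in WT. It was at 0 in KO2 at all 4 times, at least 34.8-fold lower than KO1 at 0 h. Ccl6, a chemokine gene, had 20 and 21 counts in KO1 and none in KO2 at 0 h. The others were Bglap2, Nudt12, Nxpe4 and Mcpt8, with 20 to 30 counts in KO1. On the reverse side stood Rtp4, Mndal, Apol9a, Gm13822 and Il4i1. Il4i1 encodes an amino acid oxidase, and it had 11 and 9 counts in KO2.

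Several surface receptors and secreted proteins of immune cells were also lower in KO2. Gpr34, a receptor for lysophosphatidylserine, fell from 115 and 116 CPM in KO1 to 39.4 and 36.6 in KO2 (log2 -1.60, SE 0.07, adjusted p = 8.79e-37), with 78.1 and 82.3 in WT. Gpr171, another G protein-coupled receptor, fell from 8.89 and 7.34 to 1.31 and 2.49 CPM (log2 -2.09, SE 0.24). Itgb4, the integrin beta 4 chain, stood at 9.75 and 9.60 in KO1 against 3.13 and 1.5 in KO2 and 18.4 and 16.7 in WT. Vsir, an immune checkpoint receptor, and Adgre1, the macrophage antigen F4/80, were likewise highest in WT and lowest in KO2 (Vsir 19.9 and 22.4, 8.09 and 7.78, 2.44 and 2.80 CPM in WT, KO1 and KO2). Il23a, a subunit of interleukin-23, was different. It stood at 76.3 and 77.3 CPM in KO1, 28.7 and 29.7 in KO2 and 33.9 and 35.1 in WT, so that KO1 was the one apart. Other lead falls were Cxcl2 (log2 -1.87), Rnf128 (-1.83), Nos2 (-1.51), Fos (-0.82) and mt-Co3 (-0.82). At Nos2 and Fos KO2 also lay nearer to WT than KO1 did. Nos2 stood at 23.01 and 21.45 CPM in KO1, 6.88 and 8.72 in KO2 and 10.2 and 13.5 in WT. The KO2 libraries lay below the KO1 libraries at each of these lead falls, which follows largely from picking the largest falls.

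Markers of other blood cells did not move one way. Erythroid and megakaryocyte genes were mostly higher in KO2, with 14 of 20 tested called higher and 1 lower and a median of 0.41, which was -0.04 on the spike-in scale. Hbb-bs, an adult beta-globin gene, stood at 2.45 and 2.13 CPM in KO1, 8.51 and 8.47 in KO2 and 0.06 and 0.24 in WT (log2 1.89, SE 0.23, adjusted p = 1.97e-11). Hba-a1, an alpha-globin gene, stood at 4.18 and 4.27 against 8.26 and 6.54 CPM (log2 0.81, SE 0.18). Ppbp, a platelet chemokine gene, was the 1 called lower, from 44.4 and 43.0 to 29.5 and 28.6 CPM (log2 -0.59, SE 0.07). Globin levels were thus low in every library beside those of Lcn2.

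Stem and progenitor genes split, with 7 of 21 called higher, 5 lower and a median of 0.00. Gfi1, a repressor needed for granulocyte formation, fell from 60.9 and 64.9 to 35.8 and 36.0 CPM (log2 -0.81, SE 0.07), and Cebpa, the factor that drives the granulocyte and monocyte lineage, from 4.18 and 4.70 to 2.06 and 2.18 (log2 -1.06, SE 0.22). Spi1, the gene for PU.1, fell by less (log2 -0.23, SE 0.05). Lmo2 and Angpt1 rose by 0.24 and 0.29 (log2). Of 9 macrophage genes tested 3 were called lower and 0 higher, of 11 mast cell and basophil genes 5 lower and 1 higher, and of 30 integrin and adhesion genes 7 lower and 3 higher, with 4 lower without KO1 replicate 1 and 3 without KO2 replicate 2. Markers of cells that the culture should not hold stayed low. The 4 lymphoid genes tested summed to 8.03 to 12.6 CPM in the 4 libraries with 0 called (1 lower without KO1 replicate 2), and 17 of 23 lymphoid genes had no count in any of them. Of 8 stromal genes tested 1 was called, Vim, at -0.09 (log2), a call lost without KO1 replicate 1 (adjusted p = 0.0567, edgeR), KO1 replicate 2 (0.186) or KO2 replicate 2 (0.294).

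**Figure D3:**
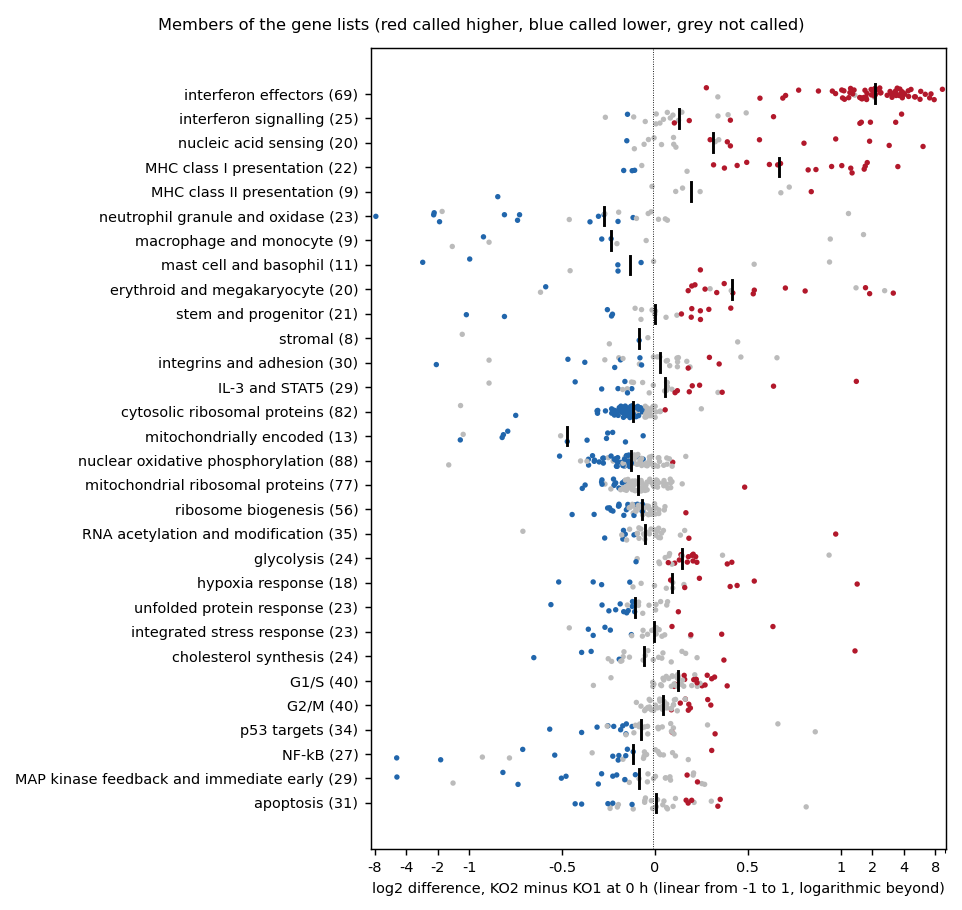
Log2 difference of KO2 minus KO1 at 0 h for each tested member of the gene lists with at least 5 such members (number in parentheses), on an axis that is linear between -1 and 1 and logarithmic beyond. Black bars are medians, the dotted line is the median of all genes tested, and genes at 0 in one clone are drawn at their bound. Interferon effectors stand at a median of 2.10, and on the spike-in scale the medians of the lists drawn other than the effectors (1.69) and MHC class I (0.21) are below 0.

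Genes for protein synthesis and respiration were slightly lower in KO2, some lists by little more than the background. Of all genes tested 9.55% were called lower. Among genes of at least 5 CPM, the fifth with the shortest summed exon length had 405 of 1975 called lower and a median of -0.07. The medians of ribosome biogenesis (-0.07) and mitochondrial ribosomal protein genes (-0.09) were near that value. Of 82 cytosolic ribosomal protein genes tested, 58 were called lower and 1 higher, with a median of -0.12, and their sum fell from 73360 and 73710 CPM in KO1 to 68560 and 68420 in KO2, with 73110 and 72890 in WT. The 1 called higher was lost without KO1 replicate 1, KO1 replicate 2 or KO2 replicate 1. Rps29 fell from 267 and 281 to 225 and 218 CPM (log2 -0.31, SE 0.03). Of 56 ribosome biogenesis genes 19 were called lower and 1 higher (median -0.07), with Ebna1bp2 at -0.45 (SE 0.04) and Nop10, a core protein of box H/ACA particles, at -0.33 (SE 0.04). Of 77 mitochondrial ribosomal protein genes 12 were lower and 1 higher, and without KO1 replicate 2 or KO2 replicate 2 only 6 and 7 were lower. Of 88 nuclear genes of oxidative phosphorylation 36 were called lower and 1 higher (median -0.13). Without KO1 replicate 1 or KO2 replicate 1 only 23 and 24 were lower. Ndufaf4, an assembly factor of complex I, fell from 57.6 and 54.8 to 44.2 and 44.8 CPM (log2 -0.34, SE 0.07).

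All 13 mitochondrially encoded genes had negative fitted differences, and 11 were called lower, with a median of -0.47. Their sum was 19500 and 19710 CPM in KO1, 17520 and 17100 in KO2 and 22330 and 22590 in WT. The most abundant member, mt-Co1, a subunit of complex IV named after its values were seen, changed least (log2 -0.06, SE 0.01). The members with the largest falls were low, and the KO2 libraries differed at them. mt-Co3 stood at 16.4 and 14.7 CPM in KO1 and at 10.3 and 7.29 in KO2, mt-Co2 at 20.8 and 18.8 against 14 and 8.41, and mt-Nd4l at 4.11 and 3.89 against 2.69 and 0.75. Their calls were lost without KO2 replicate 2 (adjusted p = 0.19, 0.267 and 0.386, edgeR), which left 7 members called, and with DESeq2. The call of mt-Co3 was also lost without KO1 replicate 1 (adjusted p = 0.0629, edgeR). Of 35 genes of RNA acetylation and modification, 2 were called higher, Adar and Alkbh5, and 5 lower, which became 3 without either KO1 library, 2 without KO2 replicate 1 and 1 without KO2 replicate 2.

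A difference at sequences that resemble ribosomal RNA was noticed after the values were seen. The locus ENSMUSG00000119584 (chromosome 17, 40157244 to 40159092 on GRCm39) stood at 1457 and 1470 CPM in KO1, 11090 and 10860 in KO2 and 2902 and 2858 in WT. At 3 h the order was the opposite, with 7227 and 7232 CPM in KO1 and 1584 and 1538 in KO2. Lars2, a mitochondrial leucyl-tRNA synthetase gene, followed the same course, with 109 CPM in both KO1 libraries against 378 and 375 in KO2 at 0 h, and 361 and 372 against 121 and 126 at 3 h. ENSMUSG00002076161 (chromosome 9, 78082585 to 78082915) stood at 1.46 and 0.44 CPM in KO1 against 36.8 and 36.5 in KO2 at 0 h. The libraries were made from polyadenylated RNA per the labels, and the part of carried-over ribosomal RNA in other results was not tested. With these loci and the mitochondrial genes left out, an alternative added after seeing the data, 2741 genes were called, 2682 of them among the 2722 in the same direction.

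Metabolism and proliferation differed modestly. Glycolysis genes were higher in KO2 relative to the average transcript, with 13 of 24 called higher and 1 lower (median 0.14, and -0.32 on the spike-in scale), and the 1 lower was lost on leaving out any of the 4 libraries. Eno1, an enolase, stood at 511 and 518 CPM in KO1, 684 and 687 in KO2 and 1000.0 and 997 in WT (log2 0.41, SE 0.02, adjusted p = 5.47e-36), and Ldha, a lactate dehydrogenase, at 889 and 908, 1040 and 1061, and 1305 and 1342. KO2 thus lay between KO1 and WT at both. Of 18 hypoxia genes 7 were called higher and 4 lower. Egln3, an oxygen-sensing hydroxylase, rose from 29.6 and 29.0 to 41.2 and 43.8 CPM (log2 0.53, SE 0.07), whereas Ndrg1 fell from 129 and 133 to 90.8 and 92.0 (log2 -0.52, SE 0.05). Among G1/S genes 13 of 40 were called higher and 0 lower (median 0.12, and -0.34 on the spike-in scale, with 1 lower without KO2 replicate 1), and Ccne1, cyclin E1, stood at 0.39 (log2, SE 0.09). Among G2/M genes 8 of 40 were higher and 0 lower (median 0.05, and -0.42 on the spike-in scale), but only 4 without KO1 replicate 1 or KO2 replicate 1. Mki67, the proliferation antigen, rose from 457 and 459 to 565 and 562 CPM (log2 0.30, SE 0.02).

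Stress, signalling and inflammatory genes were more often lower in KO2. Of 23 genes of the unfolded protein response 12 were called lower and 1 higher (median -0.11), and the 1 higher was lost without KO1 replicate 1, KO1 replicate 2 or KO2 replicate 2. Hspa5, the main chaperone of the endoplasmic reticulum, fell from 1859 and 1855 CPM in KO1 to 1269 and 1251 in KO2 (log2 -0.56, SE 0.02, adjusted p = 3.54e-53), with 1427 and 1422 in WT. Of 29 MAP kinase feedback and immediate early genes 11 were lower and 2 higher, and of 27 NF-kB genes 10 were lower and 1 higher. Without KO1 replicate 1 or KO2 replicate 1 the NF-kB gene called higher was lost, and without KO2 replicate 1 so was 1 of the 2 immediate early genes. Klf6 fell from 458 and 459 to 279 and 271 CPM (log2 -0.74, SE 0.03), and Nfkbiz, an inhibitor-like regulator of NF-kB, from 494 and 488 to 341 and 335 (log2 -0.54, SE 0.03). WT stood at 332 and 337 CPM for Nfkbiz, close to KO2. Ccl3, a chemokine gene, fell from 3.05 and 3.14 to 0.06 and 0.12 CPM (log2 -4.94, SE 0.58), and Atf3 from 1.26 and 1.07 to 0.06 and 0.00 (log2 -4.91, SE 0.88). Of 34 p53 targets 11 were lower and 2 higher, with Gadd45a, a growth arrest gene, at -0.57 (SE 0.04), and 1 of the 2 higher was lost without KO1 replicate 1, KO1 replicate 2 or KO2 replicate 2.

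Lists that split or hardly moved complete the picture. Interleukin-3 and Stat5 genes had 8 of 29 called higher and 6 lower, with Gadd45g, a stress gene, at 1.41 (log2, SE 0.15), Socs1, a feedback inhibitor of cytokine receptors, at 0.64 (SE 0.13) and Bcl2, a survival gene, at -0.43 (SE 0.04). Integrated stress response genes had 4 of 23 higher (2 without KO1 replicate 1) and 5 lower, with Ddit3 (CHOP) falling from 443 and 449 to 339 and 356 CPM (log2 -0.36, SE 0.03). Cholesterol synthesis genes had 2 of 24 higher (0 without KO1 replicate 1, KO1 replicate 2 or KO2 replicate 1, and 1 without KO2 replicate 2) and 4 lower, with Fdft1, squalene synthase, at -0.65 (SE 0.08). Apoptosis genes had 5 of 31 called in each direction, with Casp8 at 0.34 (SE 0.05), but without KO1 replicate 1 or KO2 replicate 1 only 2 were higher, and without KO1 replicate 2 or KO2 replicate 1 only 3 were lower. None of the 7 Y chromosome genes matched reached the test, with 1 count over the 4 libraries.

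WT, which was measured beside the clones, shows where each clone lay at the genes that separated them. The clones share the same WT libraries in what follows, so the comparisons are not independent. The sets of 207 and 113 genes were also chosen from the KO1 and KO2 libraries used here. Their directions against WT thus follow in part from that choice. Across all genes tested, 4416 were called between KO1 and WT (27.3%) and 4747 between KO2 and WT (29.4%). Of the 207 genes that exceeded KO1 by 2-fold or more in KO2, 69 were called between KO1 and WT, 54 lower and 15 higher in KO1. Between KO2 and WT 159 were called, 155 of these higher in KO2. Calls of at least 2-fold from WT numbered 33 in KO1 and 136 in KO2. The median difference of the 207 from WT was -0.25 in KO1 and 1.56 in KO2 (log2), or -0.24 and 1.52 with genes at 0 set to their bound. Of the 113 genes at least 2-fold lower, 25 were called between KO1 and WT, 13 higher and 12 lower in KO1. Between KO2 and WT 75 were called, all 75 lower in KO2. The medians of the 113 were 0.19 and -1.99, or 0.19 and -1.64 with bounds. For interferon effectors the medians were 0.05 in KO1 and 2.16 in KO2. For neutrophil genes they were -0.13 and -0.66 (-0.42 with bounds), and for glycolysis genes -0.49 and -0.30. For p53 targets they were 0.24 in KO1 and 0.12 in KO2. No test of how these differences compare between clones was made other than KO2 against KO1 itself.

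During actinomycin D the differences that were large at 0 h were smaller, and some of them were called again. The genes were picked by their size at 0 h, so smaller values in other libraries follow in part from that choice. The part of the drug in this was not tested. At 3, 6 and 9 h, separate libraries gave 1932 (12%), 2169 (13.4%) and 2010 (12.4%) genes called between KO2 and KO1. Of the 2722 genes called at 0 h, 933, 1011 and 852 were called in the same direction at those times and 68, 67 and 83 in the opposite one. Of the 207 at least 2-fold higher at 0 h, 109, 121 and 127 were called again in the same direction, and of the 113 at least 2-fold lower 39, 29 and 35. The median of the 207 went from 2.03 (log2) at 0 h to 0.82, 0.73 and 0.79, and that of the 113 from -2.09 to -0.74, -0.51 and -0.59. All 14 lead rises were called higher at every time, with a median of 5.55 (log2) at 0 h and 4.58, 4.33 and 4.32 at 3, 6 and 9 h. Of the 14 lead falls 9, 8 and 8 were called lower again, and Fos was called higher at 9 h (log2 0.21).

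The difference between clones itself changed at 949 genes from 0 h to 3 h (5.87% of those tested, edgeR), 537 of them toward KO2 and 412 toward KO1. Drug and time cannot be told apart in this, as every library of 3 h had the drug. Of the 69 interferon effectors 59, 61 and 63 were called higher at 3, 6 and 9 h, not in every case the genes called at 0 h, and their median went from 2.15 to 1.27, 1.16 and 1.11. Usp18 went from 3.81 at 0 h to 2.46, 2.27 and 1.96. The cytosolic ribosomal protein genes had 39, 60 and 37 called lower at those times and 11, 0 and 1 higher. Glycolysis genes had 11 higher and 0 lower at 3 h, but 1 higher and 10 lower at both 6 and 9 h. On the TMM scale the number of G1/S genes called higher grew from 13 of 40 at 0 h to 26 at 9 h. For G2/M genes it grew from 8 to 27 of 40. Spike-in RNA at 9 h stood at 258 and 257 CPM of gene counts in KO1 and 844 and 824 in KO2. The clones were thus further apart in spike-in RNA than at 0 h. Directions at later times are relative to the average transcript, and calls on the spike-in scale are not given for them.

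**Figure D4:**
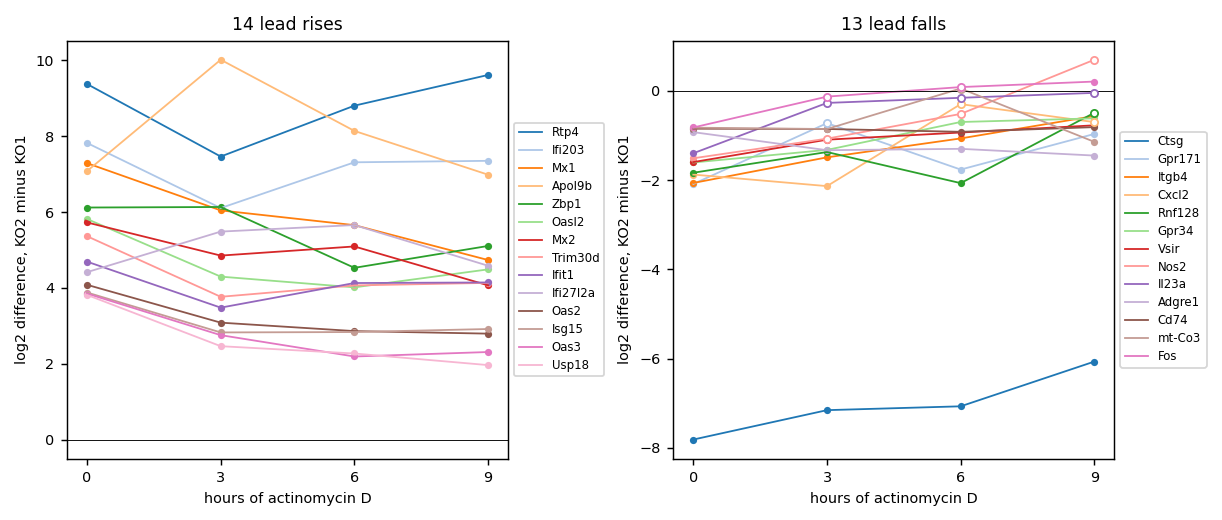
Log2 difference of KO2 minus KO1 at 0, 3, 6 and 9 h of actinomycin D for the 14 lead rises (left) and 13 of the 14 lead falls (right), with filled points called and open points not called. All rises stay above 1.96 at every time, while among the falls Ctsg stays lowest (drawn at its bound where KO2 has 0 counts) and Fos ends at 0.21.

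The differences were not gathered in one region of the genome at the resolution tested. Over the 9875 genes with at least 5 CPM, chromosome medians of KO2 minus KO1 ran from -0.07 (chromosome 8) to 0.04 (chromosome 19) on the TMM scale. In 383 runs of 25 neighbouring genes the medians ran from -0.12 to 0.11, and 0 passed the threshold of 0.3. A gain or loss confined to fewer genes than a run would not be seen this way. The summed exon length of a gene went with the small differences. In 5 bins by that length, the shortest genes had a median of -0.07 with 140 called higher and 405 lower. The longest had 0.02 with 286 higher and 200 lower. The part of library preparation in that gradient was not tested.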

How the data were processed

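Counts of read pairs per gene were deposited by the authors, 1 table per library, made per the file headers with featureCounts 1.6.3, which summed read pairs over the exons of a gene on either strand, on Ensembl release 105 of GRCm39 joined to ERCC spike-in sequences. STAR and DESeq2 are named in the submitters' processing notes, and their versions are not given in the sources used here. Each table held 55414 gene identifiers and 92 spike-in transcripts, and 0 entries named no gene. Spike-ins were removed before the tests. Symbols came from GENCODE release M21 (52081 identifiers).

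Libraries were grouped by their titles. The filter filterByExpr of edgeR 4.0.16 (R 4.3.3), at a minimum count of 10 over all 24 libraries, left 16167 genes. TMM scaling and 1 quasi-likelihood model with 12 groups (12 residual degrees of freedom, biological coefficient of variation 0.0206) gave all differences. Spread within all 12 groups enters every test. Calls needed an adjusted p (Benjamini-Hochberg) below 0.05. Libraries held 15361601 to 17338939 gene counts. Folds against a clone at 0 counts use a floor of 3 counts over the group, which covers counting error only, as reads carry no molecular identifiers. Within every group the 2 libraries were further apart than counting noise allows (lowest chi-square per degree of freedom 1.43), so none were merged.

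Genes named are Nat10, the 14 largest rises and falls called with a mean of at least 5 CPM, excluding predicted genes, up to 4 list members each way and up to 4 genes each way at 0 in one clone. Exceptions are stated. A few values are not reported here. The comparison, the 33 lists and these rules were chosen with earlier results of these data known. Alternatives were DESeq2 1.42.0, its size factors in edgeR, no filter, a replicate block, the 4 clone or 6 libraries of 0 h alone, spike-in totals as the scale, each library left out in turn, and, added after seeing the data, no ribosomal RNA-like or mitochondrial genes. The model was checked on simulated counts. Promoter windows are RefSeq's, on GRCm38.p6, and gene coordinates are on GRCm39 as in the files.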

Additional observations from a re-analysis of the deposited data

Results flagged for a closer look

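The difference between the clones changed between 0 h and 3 h of actinomycin D. No library was taken at 3 h without the drug, so drug and time cannot be told apart. At 949 genes the KO2 minus KO1 difference at 3 h was not that at 0 h by the interaction test of edgeR. Among the 28 lead genes 11 did so. The lead genes were ranked by their 0 h values, which also enter this test, so smaller differences at 3 h are favoured. The log2 difference at 3 h minus that at 0 h was -1.52 for Oasl2 (adjusted p = 0.000615), -1.60 for Trim30d (0.015), -1.21 for Ifit1 (0.00816), -0.998 for Oas2 (2.41e-13), -1.05 for Isg15 (9.85e-07), -1.10 for Oas3 (3.62e-15) and -1.35 for Usp18 (2.42e-17), all edgeR. These 7 rises were smaller at 3 h. It was 1.07 for Ifi27l2a (adjusted p = 0.0124, edgeR), the 1 lead rise whose larger difference at 3 h passed the test. Among the lead falls it was 1.36 for Gpr171 (adjusted p = 0.0217), 1.13 for Il23a (0.00566) and 0.69 for Fos (0.000149), so 3 falls were smaller at 3 h.

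Spike-in RNA, which does not enter the tests, stood at 240.4 ± 0.29 CPM of gene counts in KO1 and 332.9 ± 12.9 in KO2 at 0 h (SD, n = 2), against 7.19 ± 0.38 in WT. The labels state equal amounts per sample.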

How the results depend on the processing

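The counts moved most with the scale: spike-in totals gave 9285 genes called between KO2 and KO1 at 0 h, 213 higher and 9072 lower, with 612 at least 2-fold lower. DESeq2 gave 134 genes at least 2-fold higher and 40 at least 2-fold lower, and the 4 clone libraries alone 75 at least 2-fold lower; for these the cause was not tested. Leaving out each library in turn gave 1856 to 2176 genes called, 801 to 910 higher, 1055 to 1266 lower, 172 to 188 at least 2-fold higher and 73 to 126 at least 2-fold lower, the lowest without KO2 replicate 2. Called genes numbered 3314 to 4463 for KO1 against WT and 3652 to 4710 for KO2 against WT. Calls of 0 h repeated at 3, 6 and 9 h numbered 745 to 845, 823 to 885 and 686 to 766, and the change from 0 h to 3 h was called at 667 to 752 genes. Without 1 library an arm holds a single sample, assumed to vary like the other groups. DESeq2 called 1976 genes, all among the 2722 in the same direction.

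Replicate numbers did not pair the clones (correlation of same-numbered deviations 0.02 over 9875 genes), and with a replicate block 2772 genes were called, 2672 of them among the 2722 in the same direction. Of 173 named genes 172 were called. Most were picked from genes already called at 0 h, so this count follows largely from the naming rule. The tally that follows covers these picked genes only, and it leaves out the spike-in scale. On that scale the median of all genes moved by -0.46 (log2), so the direction of small differences rests on the scale for named genes too. Over 1713 alternative values 1566 kept their side of the threshold, 147 lost the call, in 48 genes, and 0 changed direction.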

Other observations

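Genes outside the lists that were at least 2-fold higher in KO2 were looked at after their values were seen. Ube2l6, whose protein passes Isg15 to its targets, stood at a mean of 26.6 CPM in KO1, 121 in KO2 and 25.4 in WT (log2 2.18, adjusted p = 4.57e-57, edgeR). Uba7, the enzyme that activates Isg15, stood at 160.0, 325 and 164 CPM. Rnf213, a large ubiquitin ligase, stood at 312, 981 and 238 CPM, and Pml, which builds nuclear bodies, at 91.2, 184 and 113. The tripartite motif genes Trim34a, Trim14 and Trim12c rose by 2.09, 1.46 and 1.20 (log2). Not all such genes stood at the WT level in KO1. Ecm1, an extracellular matrix gene, stood at 55.7 CPM in KO1, 118 in KO2 and 115 in WT, and Fgf23 at 4.89, 11.3 and 11.1. At both of these KO2 was close to WT, and KO1 was apart.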
